A study of Homo sapiens with 6 samples.

Results

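Nuclear genes for the respiratory chain and ATP synthase were followed in Cal33 cells, a human line established from a squamous carcinoma of the mouth. They were taken by symbol from the deposited TPM table (abundance per transcript length, scaled to a fixed total in each library). A gene was a member if its symbol began with NDUF, UQCR, COX4 to COX8 or ATP5, or was SDHA, SDHB, SDHC or SDHD, and named no second gene joined by a hyphen. This gave 92 of 14136 genes. They comprised 37 complex I subunits, 8 complex I assembly factors (NDUFAF genes), 4 complex II genes, 9 complex III genes, 15 complex IV genes and 19 complex V genes. NDUFA4 and NDUFA4L2 were placed with complex IV, since NDUFA4 is known as a subunit of cytochrome c oxidase in spite of its symbol. The symbol rule takes none of the assembly factors of complexes II to V that are listed further below, and cytochrome c1 (CYC1) also falls outside it. It does take COX7A2L, a supercomplex factor, and ATP5IF1, an inhibitor of ATP synthase, so the complexes as counted here are not subunits alone.

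The CES2 group (n = 3 libraries) stably carried a lentiviral vector, pSin-EF2, with FLAG-tagged carboxylesterase 2, an ester-cleaving enzyme of the endoplasmic reticulum. The Vector group (n = 3 libraries) carried the same lentiviral vector empty. Both groups were infected with virus packaged in 293FT cells, which derive from human embryonic kidney, and both were kept under selection with puromycin at 0.5 ug/ml. The labels do not say whether infections or cultures were separate, so p-values measure the spread between these libraries, which may be technical. The cell pools are overexpression models: the construct's transcript comes on top of the endogenous one.

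The respiratory chain passes electrons from NADH (through complex I) and from succinate (through complex II) over ubiquinone to complex III, cytochrome c and complex IV, where oxygen is reduced. Complexes I, III and IV pump protons across the inner mitochondrial membrane, and complex V, the ATP synthase, uses the resulting gradient to make ATP. The core of several complexes is encoded in mitochondrial DNA, while all of complex II and most other subunits are encoded in the nucleus. The mitochondrially encoded subunits were not analysed here.

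The overexpressed gene was checked first. CES2 was at 2664, 1929 and 2294 TPM in the 3 CES2 libraries, against 45.6, 41.9 and 44.9 TPM in the Vector libraries, a log2 fold change of 5.66 ± 0.18 (SE, limma, adjusted p = 7.38e-06 over 12210 tested genes). It was the only gene of 12210 past the Benjamini-Hochberg threshold of 0.05, which is 0.00819% of those tested, and 133 genes had an unadjusted p under 0.05. The libraries did not sort by group. Over all tested genes, CES2 2 correlated most with Vector 1 (Pearson r of log2(TPM + 1) 0.978), above its correlation with CES2 3 (r = 0.932). The 8 squamous epithelial markers examined were all read, with summed levels of 3428 to 4979 TPM in CES2 and 3632 to 4894 TPM in Vector. KRT5 and KRT17, keratins of basal and squamous cells, led them, and KRT14 was low at 1.14 to 2.97 TPM over the 6 libraries. Of 6 fibroblast markers only COL1A1 was read, at 3.90 to 10.5 TPM in CES2 and 4.49 to 9.36 TPM in Vector. Of 6 leukocyte markers 3 were read, at a sum of 5.68 to 8.55 TPM in CES2 and 6.35 to 11.7 TPM in Vector. Of 4 endothelial markers 3 were read, at a sum of 11.2 to 20.5 TPM in CES2 and 10.2 to 25.8 TPM in Vector, mostly CDH5. The depth behind the values is unknown, since TPM keeps none.

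Transcripts of the respiratory chain genes made up a nearly constant share of all TPM. The share was 2.34%, 2.37% and 2.30% in the CES2 libraries and 2.34%, 2.37% and 2.11% in the Vector libraries (2.34 ± 0.0362% and 2.27 ± 0.140%, SD, n = 3 each). Vector 3 was the low library and the groups overlapped. In such bulk samples, fewer cells of a kind and less RNA per cell cannot be told apart. In TPM, 67 of the 92 genes averaged at least 100 TPM over the 6 libraries, and the median gene averaged 179 TPM. The most abundant was ATP5F1B, the catalytic beta subunit of ATP synthase, at 1816 ± 99.9 TPM in CES2 and 1840 ± 365 TPM in Vector (SD, n = 3 each). Next came COX8A and COX6A1, small nuclear subunits of complex IV, at means of 1162 and 1038 TPM over all libraries, and UQCRH, the hinge subunit of complex III, at 823 TPM. COX8A and COX6A1 overlapped across the 6 libraries and are not separated by this spread.

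**Figure D1:**
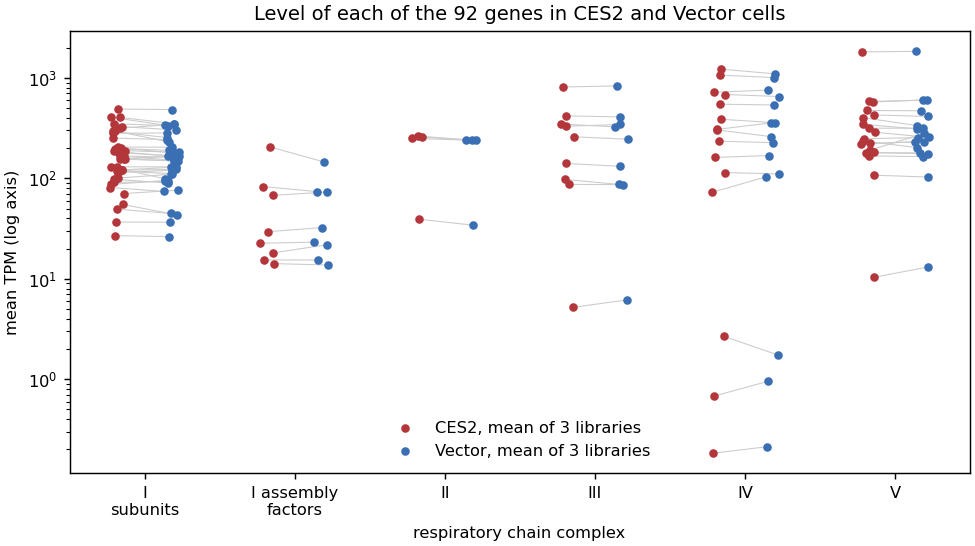
Mean TPM of each of the 92 genes in CES2 cells (red, left of each pair) and Vector cells (blue, right), on a log axis, by complex; grey lines join the same gene, and each point is the mean of 3 libraries. Levels run from 0.198 TPM for COX6B2 to 1828 TPM for ATP5F1B over all libraries, and most joining lines are nearly level.

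Across the whole set, 90 of the 92 genes reached at least 1 TPM in at least 3 libraries and were tested, COX6B2 and COX7A1 being the exceptions. None passed the threshold over all genes in limma (smallest adjusted p = 0.9998, against 0.00819% of all genes called). At an unadjusted p under 0.05 there was 1 gene of 90, NDUFS7, or 1.11%, beside 1.09% of all tested genes, a share at the background. It was higher in CES2, and genes both under that unadjusted p and higher in CES2 make up 0.59% of all tested. Without any difference, a share near 0.05 of genes would on average have such a p, so these p-values may be conservative. The lack of calls does not show that levels were equal. The log2 fold changes, CES2 over Vector on the log2(TPM + 1) scale, ran from -0.37 for ATP5F1A to 0.53 for NDUFAF8, and only NDUFAF8 was beyond 0.5 in either direction. With a library left out, 29 of the 33 fold changes of members given here moved by over 1.5 times or changed sign, and those of NDUFS7, NDUFB7, NDUFB4 and COX4I1 did not. The median size of a change, sign ignored, was 0.08, against 0.12 for all tested genes. The standard errors were also smaller, with a median of 0.20 against 0.26, and 71 of 90 genes lay below the median of all genes. COX4I1, a nuclear-encoded subunit of complex IV, had the smallest ratio of highest to lowest library among the tested genes of the set, at 1.09. It was at 659, 703 and 689 TPM in CES2 and 647, 671 and 642 TPM in Vector, and the 95% interval of its log2 fold change ran from -0.29 to 0.42.

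The centre of the set lay slightly above that of all genes. The median log2 fold change was 0.04, against -0.06 over all tested genes, and 58 of 90 genes (64.4%) were above 0, against 36.3% of all tested genes. After each library was rescaled to the same median, the numbers were 73 of 90 (81.1%) against 51.4% of all genes, with a median of 0.10. After quantile normalization they were 57 of 90 (63.3%) against 47.2%. Without Vector 3 the median was 0.01 and 48 of 90 genes (53.3%) were above 0, against 49.3% of all genes. Vector 3 was the library in which the set stood lowest, at a median of -0.08 log2 units from each gene's mean, while the median of all tested genes in that library was 0.14. The set also differs in coding length, taken as the longest of each gene, with a median of 460.5 bases against 1401 bases for all listed genes. Over all tested genes, the median log2 fold change was 0.007 under 300 coding bases and -0.08 at 1200 bases and over. For genes of the set it was 0.05 and 0.002. The part of length in the fold changes was not tested.

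**Figure D2:**
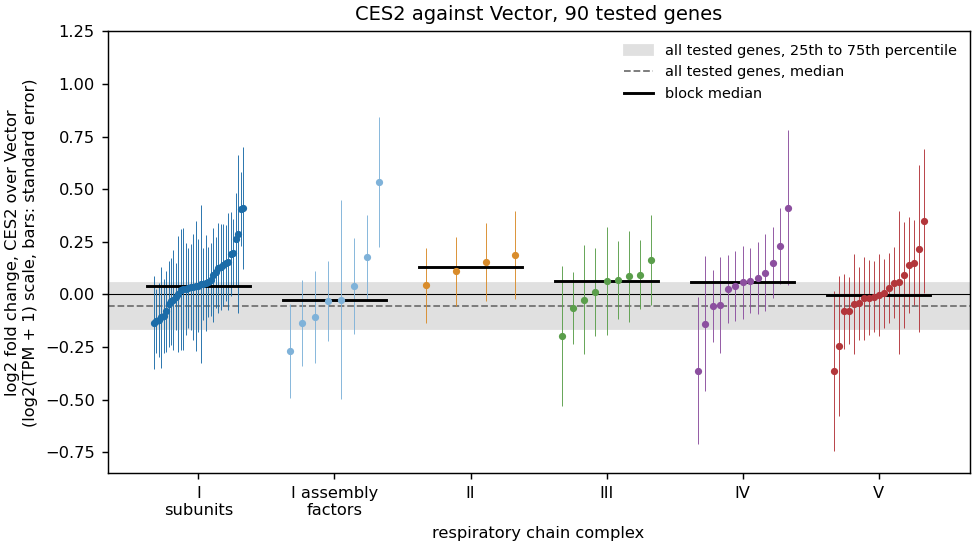
Log2 fold change, CES2 over Vector, of the 90 tested genes by complex (points, with standard errors), with the median of each complex (black bars), the median of all tested genes (dashed line, -0.06) and their middle range (grey band, -0.17 to 0.05). No gene is past the threshold, and the complex medians lie between -0.03 for the complex I assembly factors and 0.13 for complex II.

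Among the 37 complex I subunits, 27 were above 0 and 10 below, with a median log2 fold change of 0.04, and 0 passed. NDUFS7, a core subunit that carries an iron-sulfur cluster close to the ubiquinone site, had the smallest p of all members. It was at 129, 124 and 141 TPM in CES2, against 95.8, 88.3 and 113 TPM in Vector. Each CES2 library was above each Vector library, by a log2 fold change of 0.40 ± 0.18 (SE, 95% interval 0.00 to 0.81, limma, unadjusted p = 0.049, adjusted p = 0.9998). The listed transcript has 8 exons on chromosome 19 (1383527 to 1393545, plus strand, GRCh38) and overlaps exons of 2 noncoding genes on the other strand. NDUFB7, an accessory subunit on the intermembrane face, was at 268, 314 and 297 TPM in CES2 and 268, 241 and 256 TPM in Vector (0.20 ± 0.16). The groups did not overlap, but CES2 1 and Vector 1 were both 268 TPM when rounded. NDUFB4, another accessory subunit, lay the other way, at 313, 305 and 331 TPM in CES2 and 343, 351 and 342 TPM in Vector (-0.13 ± 0.15), again without overlap.

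Non-overlapping groups were few. With COX8A, each CES2 library was above each Vector library in 3 of 90 genes (3.33%), against 1.07% of all tested genes. Each CES2 library was below each Vector library in 1 of 90 genes (1.11%), against 2.63% of all tested genes. None of these 4 genes passed over all genes. COX8A was at 1151, 1380 and 1145 TPM in CES2 and 1081, 1092 and 1125 TPM in Vector, a log2 fold change of 0.15 ± 0.17. Its listed transcript overlaps exons of another coding gene on the same strand. NDUFB4 has 12 pseudogenes named after it, so reads may be shared in both genes.

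**Figure D3:**
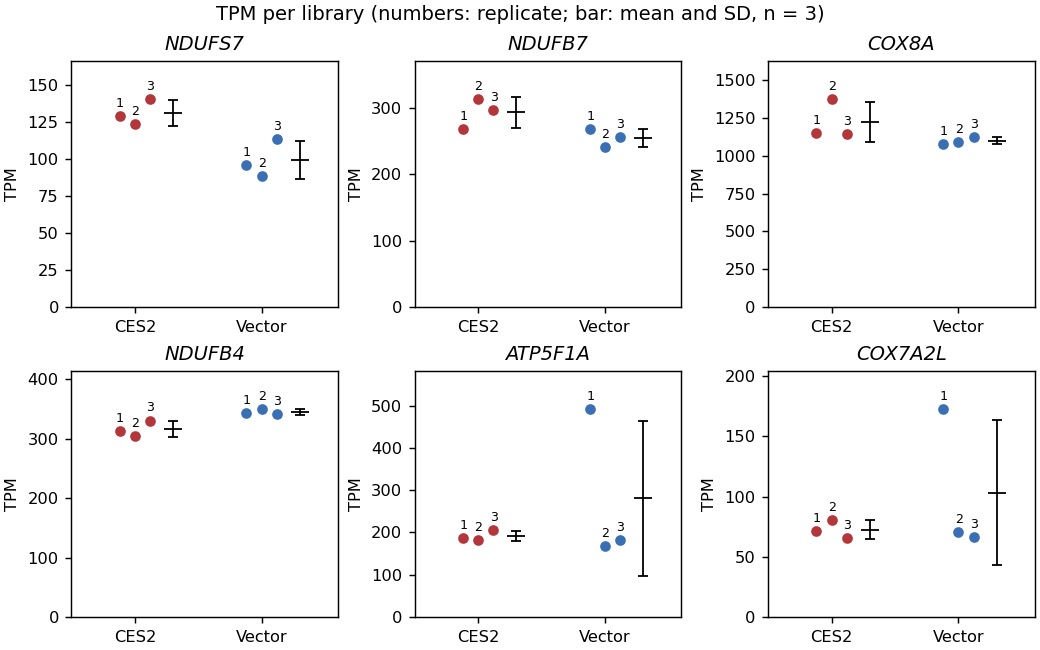
TPM of 6 genes in each CES2 library (red) and each Vector library (blue), numbered by replicate, with mean and SD (n = 3) at the right of each group; every axis starts at 0. NDUFS7, NDUFB7, COX8A and NDUFB4 are the genes without overlap between groups, and in ATP5F1A and COX7A2L the Vector mean is set by Vector 1.

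To show the promoters of the genes without overlap, the 150 bases before the RefSeq start (GRCh38.p14, 5′ to 3′ on the gene's strand) are given for NDUFB7, COX8A and NDUFB4. That of NDUFS7 lies inside longer annotated transcripts and is described only. Capitals mark matches, on either strand, to 4 strings searched as letters: GCGCATGCG, the core of the NRF1 motif, CCGGAAG, an ETS family motif, AAGATGGCG, a YY1 motif, and GGGCGG, the SP1 box. The windows lie at chr19:1383757-1383906 (plus strand) for NDUFS7, chr19:14572067-14572216 (minus) for NDUFB7, chr11:63974470-63974619 (plus) for COX8A and chr3:120596186-120596335 (plus) for NDUFB4.
NDUFB7: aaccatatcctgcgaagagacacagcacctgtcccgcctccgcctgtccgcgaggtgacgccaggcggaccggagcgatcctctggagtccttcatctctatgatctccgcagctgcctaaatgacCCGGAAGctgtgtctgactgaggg
COX8A: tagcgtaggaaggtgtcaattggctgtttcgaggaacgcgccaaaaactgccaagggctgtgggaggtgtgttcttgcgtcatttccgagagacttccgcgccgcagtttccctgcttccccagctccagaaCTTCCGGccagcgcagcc
NDUFB4: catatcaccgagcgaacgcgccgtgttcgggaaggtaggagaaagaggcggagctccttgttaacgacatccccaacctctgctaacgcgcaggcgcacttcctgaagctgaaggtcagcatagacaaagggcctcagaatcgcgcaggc
NDUFS7 holds an NRF1 string from -74 to -66 and an SP1 box from -52 to -47. NDUFB7 and COX8A each hold an ETS string, from -24 to -18 and from -18 to -12, and NDUFB4 holds none of the 4 strings in these bases. Wider windows, from 250 bases before to 50 after the start, hold more. NDUFB4 has an NRF1 string there, NDUFB7 and COX8A each have an SP1 box, and NDUFS7 has a YY1 string. The last bases of the COX8A and NDUFB4 stretches fall within transcripts of GENCODE 29 that start earlier.

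NRF1 and the ETS factor GABP are known regulators of nuclear respiratory genes. RefSeq promoter windows (250 bases before to 50 after a start) were matched to 72 of the 92 genes, with 90 windows, some of which belong to the same gene and overlap. The NRF1 string stood in 12 of 90 windows (13.3%), against 2.36% of 22198 windows of protein-coding genes. The ETS string stood in 24 of 90 (26.7%), against 12.8%, and the YY1 string in 12 of 90 (13.3%), against 2.41%. The SP1 box stood in 56 of 90 (62.2%), against 56.3%. A match is a description of these letters and not of a bound site. Of 15 tested regulators of mitochondrial biogenesis, which include NRF1, GABPA and YY1, 5 were above 0 and 10 below, with a median of -0.05. This is near the background, as 36.3% of all tested genes were above 0, with a median of -0.06. None passed. GABPA, the DNA-binding subunit of GABP, was at 21.2, 17.2 and 15.5 TPM in CES2 and 24.4, 17.6 and 20.4 TPM in Vector. MTERF1, a mitochondrial transcription termination factor, was at 12.4, 10.6 and 11.6 TPM in CES2 and 15.2, 12.8 and 14.5 TPM in Vector (-0.27). Each CES2 library was below each Vector library in MTERF1, while the groups overlapped in GABPA.

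Other complex I subunits varied more between libraries than between groups. NDUFA13, which is also known as GRIM-19, was at 295, 354 and 239 TPM in CES2 and 320, 223 and 148 TPM in Vector (0.41 ± 0.29). The groups overlapped, and Vector 3 was 1.504 times below the next library. NDUFA13 lies on chromosome 19 from 19515736 to 19528197 and shares exons with an overlapping coding gene on the same strand, so its value is uncertain. NDUFS1, the largest subunit of the electron-input arm, was at 77.0, 32.8 and 38.1 TPM in CES2 and 43.8, 42.3 and 48.0 TPM in Vector (0.04 ± 0.31). CES2 1 alone was high, 1.604 times the next library. The most abundant subunits were NDUFS5 and NDUFB8, accessory proteins of the membrane arm, at means of 487 and 378 TPM over all libraries. The least abundant was NDUFA9, at 26.6 TPM.

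The 8 assembly factors of complex I help build the complex without staying in it, and were low as a group. Their median level was 26.9 TPM over all libraries, against 159 TPM for the complex I subunits. Of the 8, 3 were above 0 and 5 below, with a median log2 fold change of -0.03, and 0 passed. That median was 0.09 without CES2 2, -0.15 without CES2 3 and 0.04 after quantile normalization. NDUFAF8, a partner of NDUFAF5, was at 216, 151 and 250 TPM in CES2 and 92.3, 200 and 144 TPM in Vector. Its log2 fold change of 0.53 ± 0.31 was the largest of the set (95% interval -0.17 to 1.24), but the groups overlapped and Vector 1 was 1.57 times below the next library. Without Vector 1 it was 0.24, and other members exceeded it. ATP5MC2, NDUFA13 and NDUFA4L2, at 0.74, 0.68 and 0.65, were among those above it. NDUFAF7, a mitochondrial methyltransferase, was at 14.9, 17.4 and 22.0 TPM in CES2 and 24.99, 20.2 and 20.3 TPM in Vector (-0.27 ± 0.22). NDUFAF3, which acts early with NDUFAF4, had a log2 fold change of 0.18 ± 0.20. NDUFAF4 ranged from 7.96 to 25.5 TPM in CES2 and from 7.74 to 23.0 TPM in Vector, so its libraries differed by more than its groups (15.4 ± 9.07 and 15.4 ± 7.61 TPM, SD, n = 3 each).

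All 4 complex II genes had a log2 fold change above 0, and none passed. SDHA, the flavoprotein, was at 257, 282 and 236 TPM in CES2 and 245, 221 and 251 TPM in Vector (0.11 ± 0.16). SDHB, the iron-sulfur subunit, was at 235, 221 and 294 TPM in CES2 and 226, 242 and 254 TPM in Vector (0.04 ± 0.18). SDHC and SDHD anchor the complex in the membrane. SDHC was the low one, at 42.8, 42.7 and 32.1 TPM in CES2 and 39.3, 33.6 and 29.9 TPM in Vector (0.19 ± 0.21). SDHD was at 261, 247 and 285 TPM in CES2 and 232, 202 and 283 TPM in Vector (0.15 ± 0.19). The groups overlapped in each of the 4 genes. The median over the 4 was 0.13, and 0.05 without Vector 2.

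Of the 9 complex III genes, 6 were above 0 and 3 below, with a median of 0.07 and none past the threshold. UQCRFS1, the Rieske iron-sulfur protein, was at 91.97, 83.0 and 117 TPM in CES2 and 70.4, 90.6 and 99.7 TPM in Vector (0.16 ± 0.21). The log2 fold change was 0.02 without Vector 1 and 0.02 without CES2 3. UQCRC1, a core protein, was at 348 ± 30.7 TPM in CES2 and 325 ± 18.6 TPM in Vector (SD, n = 3 each, log2 fold change 0.09 ± 0.16). UQCRH was at 867, 954 and 617 TPM in CES2 and 1018, 885 and 596 TPM in Vector. CES2 3 and Vector 3 were the low libraries in it, and the group means of 813 and 833 TPM were closer than the libraries within a group. UQCRHL, a near-identical copy of UQCRH on the same chromosome, ran in parallel at 6.04, 6.17 and 3.36 TPM in CES2 and 7.41, 7.33 and 3.72 TPM in Vector (-0.20 ± 0.33). Its value is uncertain where reads match both. UQCRQ, a small subunit and the next gene of complex III in level, was at 419 ± 71.1 TPM in CES2 and 409 ± 120 TPM in Vector (SD, n = 3 each, log2 fold change 0.07 ± 0.26). The median of complex III was -0.03 without CES2 2 and -0.05 without Vector 3.

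Complex IV has several subunits that exist as tissue-specific paralogues. The ubiquitous forms were read in Cal33 cells, and of the tissue-specific forms COX7A1 and COX6B2 were listed. COX6A1, COX6B1, COX7A2 and COX8A averaged between 283 and 1162 TPM over all libraries. COX7A1, the heart and skeletal muscle form of subunit 7A, was at 0.195, 0.868 and 0.974 TPM in CES2 and 0.648, 1.11 and 1.11 TPM in Vector. COX6B2, known from testis, was between 0.113 and 0.251 TPM in CES2 and between 0.0652 and 0.488 TPM in Vector. The paralogues COX4I2, COX6A2, COX7B2 and COX8C were not among the genes listed, so nothing is said of them. Of the 13 tested complex IV genes, 9 were above 0 and 4 below, with a median of 0.06, or 0.007 without CES2 2, and 0 passed. COX7A2 was at 298, 333 and 281 TPM in CES2 and 307, 246 and 229 TPM in Vector (0.23 ± 0.18). COX6A1, COX6B1 and COX7B had log2 fold changes of 0.08, 0.10 and 0.04.

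The NDUFA4 pair differed mainly in level. NDUFA4 was at 162, 167 and 155 TPM in CES2 and 173, 188 and 145 TPM in Vector (-0.06 ± 0.17, and 0.01 after median rescaling). NDUFA4L2, its paralogue known as a hypoxia target, was near the filter, at 3.75, 2.92 and 1.37 TPM in CES2 and 2.72, 1.01 and 1.51 TPM in Vector (0.41 ± 0.37). COX7A2L, a supercomplex factor related to COX7A2, was at 71.8, 80.5 and 65.6 TPM in CES2 and 173, 70.6 and 66.3 TPM in Vector. Vector 1 alone was high, 2.15 times the next library. The log2 fold change was -0.36 ± 0.35 with all libraries and 0.08 without Vector 1.

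Of the 19 complex V genes, 9 were above 0 and 10 below, with a median log2 fold change of -0.002 and none past the threshold. ATP5F1A, the alpha subunit, was at 186, 183 and 206 TPM in CES2 and 493, 167 and 182 TPM in Vector. The Vector 1 value was 2.40 times the next library, and the log2 fold change of -0.37 ± 0.38 turned to 0.13 without it. ATP5F1B, its partner in the catalytic head, was not high in that library, at 1568 TPM in Vector 1 against 2254 and 1698 TPM in the other Vector libraries. ATP5F1D, the delta subunit of the central stalk, was at 246, 255 and 364 TPM in CES2 and 258, 232 and 278 TPM in Vector (0.15 ± 0.20, and -0.03 without CES2 3). ATP5MD, a small membrane subunit and the next gene of complex V in level, was at 584 ± 29.02 TPM in CES2 and 600 ± 120 TPM in Vector (SD, n = 3 each).

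Identical mature c subunits of the membrane ring are encoded by ATP5MC1, ATP5MC2 and ATP5MC3. ATP5MC1 was at 315, 281 and 440 TPM in CES2 and 249, 332 and 352 TPM in Vector (0.14 ± 0.23). ATP5MC2 was at 437, 300 and 468 TPM in CES2 and 531, 221 and 253 TPM in Vector (0.35 ± 0.34). ATP5MC3 was at 192, 195 and 156 TPM in CES2 and 174, 231 and 120 TPM in Vector (0.09 ± 0.25). Their sum was 944, 777 and 1064 TPM in CES2 and 954, 784 and 725 TPM in Vector, so the groups overlapped in the sum as in each gene. The libraries high in the sum were not the same as those high in ATP5MC3, which had the lowest mean.

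A pattern shared by members of every complex ran across the groups and not between them. It was noticed after the values were seen. In 33 of the 90 tested genes (36.7%), CES2 3 was the lowest CES2 library and Vector 3 the lowest Vector library, against 9.34% of all tested genes. ATP5ME, a small membrane subunit of ATP synthase, was at 244, 325 and 137 TPM in CES2 and 255, 241 and 112 TPM in Vector. NDUFA1, a small membrane subunit of complex I, was at 173, 210 and 87.6 TPM in CES2 and 183, 171 and 91.8 TPM in Vector. ATP5F1E, the epsilon subunit, was at 124, 132 and 66.8 TPM in CES2 and 122, 123 and 64.8 TPM in Vector. In each of these genes the libraries numbered 3 lay far below the other 4, while the log2 fold changes between groups were 0.22, 0.05 and 0.06. Their listed transcripts overlap exons of MYL5, RNF113A and TUBB1 on the other strand, so reads may be shared if counting did not use strand. The 33 genes comprised 15 complex I subunits, 1 complex II, 5 complex III, 5 complex IV and 7 complex V genes, and no complex I assembly factor.

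The opposite order, with both libraries numbered 3 highest, held for 20 of 90 genes (22.2%), against 22.3% of all tested genes. NDUFS8, a core subunit with iron-sulfur clusters, was the clearest of these in complex I, at 207, 191 and 357 TPM in CES2 and 210, 201 and 320 TPM in Vector. The libraries numbered 1 were both lowest in 3 genes (3.33%, against 6.49% of all genes) and both highest in 6 (6.67%, against 9.58%). The libraries numbered 2 were both lowest in 9 genes (10.0%, against 9.96%) and both highest in 14 (15.6%, against 2.9%). Deviations from the group means of CES2 3 and Vector 3 had a Pearson r of 0.687 across the 90 genes and of 0.375 across all 12210. Those of CES2 2 and Vector 1 had 0.541 and 0.682. Genes are not independent replicates, and these values only describe the libraries.

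**Figure D4:**
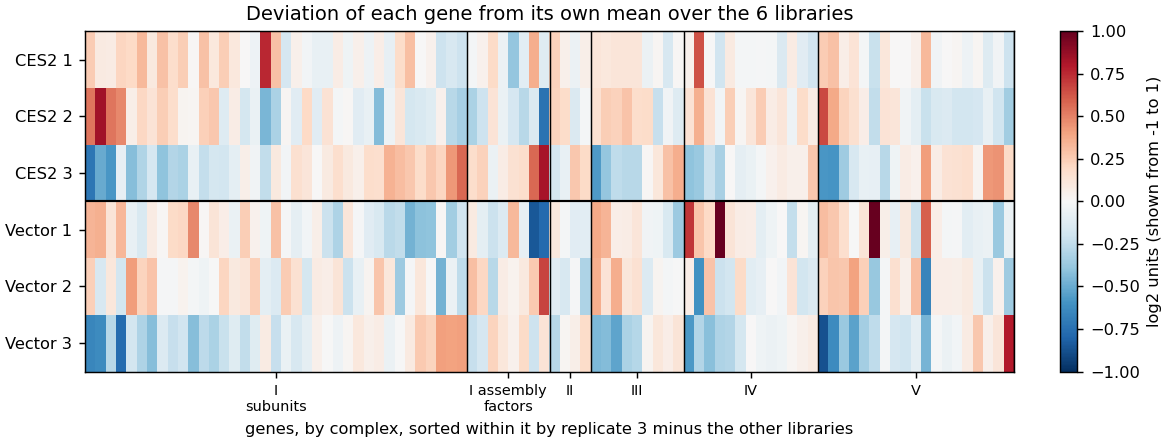
Deviation of each of the 90 tested genes from its own mean over the 6 libraries (colour, log2 units, red above and blue below), with CES2 libraries above the line and Vector libraries under it. Within each complex, genes are sorted by the difference between the libraries numbered 3 and the other 4. A turn of the rows of CES2 3 and Vector 3 from blue to red thus follows from the sorting. The 2 rows part in some complex I assembly factors, such as NDUFAF2 (0.18 in CES2 3 and -0.23 in Vector 3) and NDUFAF8 (0.58 and -0.21).

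The genes low in both libraries numbered 3 had short coding sequences. Their median coding length was 315 bases, against 465 bases for all 90 tested genes and 674 bases for the 20 genes high in both. Their median GC content was 47.35%, against 48.53% and 53.06%. Length here is the longest coding length of the gene and not the length of the listed transcript. Across the tested genes of the set (n = 90), the difference between the libraries numbered 3 and the other 4 had a Spearman rho of 0.471 with coding length. Across all tested genes with a coding length (n = 12206) it was 0.0723. In genes with a coding length under 300 bases, the median difference was -0.38 for 22 genes of the set and -0.17 for all 230 tested genes of that length. From 300 bases to under 450 bases it was -0.26 for 20 genes of the set and -0.003 for all 579. From 450 bases to under 600 bases it was -0.006 for 20 genes of the set, and from there to under 1200 bases 0.22 for 17 genes, against 0.01 and 0.06 for all genes of those lengths. At 1200 bases and over it was -0.04 for 11 genes of the set and 0.09 for all 7096. Over all genes of that length the libraries differed, with a median of -0.04 for CES2 3 against the other CES2 libraries and 0.21 for Vector 3 against the other Vector libraries. Whether transcript length, RNA quality or another property of these libraries lies behind the difference was not tested.

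**Figure D5:**
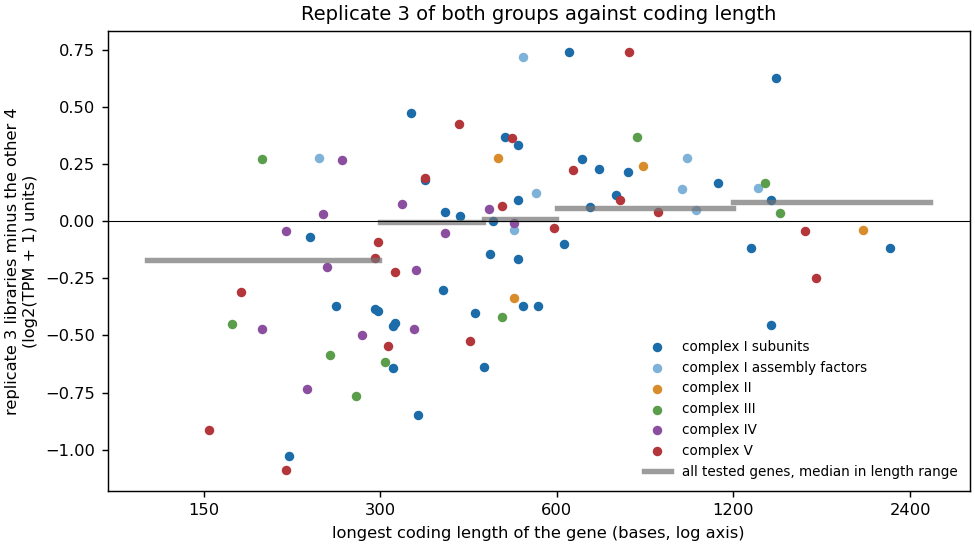
Difference between the libraries numbered 3 of both groups and the other 4 libraries (log2(TPM + 1) units) against the longest coding length of each gene (log axis), for the tested genes coloured by complex; grey bars give the median of all tested genes in each length range. Genes near -1, such as ATP5ME, NDUFA1 and ATP5F1E, have short coding sequences, and the grey bars run from -0.17 for the shortest genes to 0.09 for the longest.

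The difference between CES2 and Vector varied with base composition. Spearman's rho between the fold change and the GC content of the listed transcript was 0.467 across the genes of the set (n = 89, with a value) and 0.301 across all tested genes (n = 12205), a description across genes of the same 6 libraries. Of the 22 genes of the set with a GC content of at least 55%, 21 were above 0, with a median of 0.14, against 52.0% of all 4195 such genes and a median of 0.01. NDUFS7, NDUFB7 and NDUFAF8 are among them, at 66.8%, 65.0% and 60.2% GC. Of the 23 genes under 45% GC, 12 were above 0, with a median of 0.01, against 20.7% of all 3909 such genes and a median of -0.12. The part of base composition in the fold changes was not tested. Chromosome 19, which is rich in GC, carries 12 of the 92 genes (13.0%), against 6.90% of all listed genes.

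Genes of the same pathway outside the symbol rule were read as lists, beside all tested genes, of which 36.3% were above 0 (median -0.06). Of 12 further complex I assembly factors, 6 were above 0 and 6 below (median -0.02). Of 4 complex II assembly factors, 3 were above 0 (median 0.05). Of 7 genes for cytochrome c1 and complex III assembly, 3 were above 0 (median -0.06), and of 4 for complex V assembly, 1 was (median -0.07). CYC1, which encodes cytochrome c1, was at 862, 847 and 811 TPM in CES2 and 647, 828 and 700 TPM in Vector (0.22). ECSIT, an assembly factor of complex I, was at 49.4, 75.7 and 55.2 TPM in CES2 and 58.1, 53.2 and 39.0 TPM in Vector (0.25). DMAC1, another factor in complex I assembly, was at 49.3, 52.5 and 64.8 TPM in CES2 and 45.4, 45.8 and 51.7 TPM in Vector (0.21). SDHAF1 and SDHAF3, which assist complex II, had log2 fold changes of 0.16 and -0.12. Those of UQCC1, a complex III factor, and of TMEM70 and ATPAF1, complex V factors, were -0.22, -0.20 and 0.12. None of these genes passed, and none had an unadjusted p under 0.05.

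Complex IV assembly genes were the largest such list, with 12 of 28 above 0 and 16 below (median -0.01). For all tested genes the values were 36.3% above 0 and a median of -0.06. SCO2, a copper chaperone for complex IV, was at 68.0, 58.4 and 54.99 TPM in CES2 and 42.6, 47.7 and 45.6 TPM in Vector (0.41, unadjusted p = 0.052, adjusted p = 0.9998, limma). HIGD1A, a hypoxia-inducible protein that binds complex IV, lay the other way. It was at 144, 142 and 149 TPM in CES2 and 158, 213 and 211 TPM in Vector (-0.41, unadjusted p = 0.054, adjusted p = 0.9998, limma). The groups overlapped in neither gene, and neither passed.

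Of 21 tested genes for mobile electron carriers and other dehydrogenases, 14 were above 0 (median 0.09), against 36.3% of all tested genes. The list joins 13 genes of ubiquinone synthesis and binding, 9 of them above 0, with 8 for cytochrome c and dehydrogenases, 5 of them above 0. DHODH, which links pyrimidine synthesis to ubiquinone, was at 20.5, 14.8 and 17.2 TPM in CES2 and 10.8, 19.04 and 13.6 TPM in Vector (0.28). COQ10A, a ubiquinone-binding protein, was at 6.26, 8.69 and 7.26 TPM in CES2 and 5.23, 5.49 and 6.72 TPM in Vector (0.30). No gene of this list passed or had an unadjusted p under 0.05.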

How the data were processed

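RNA of 6 Cal33 libraries was analysed from the deposited table, which holds 1 TPM column per library. The unit TPM was read from the deposited values themselves, as each column sums to between 999804 and 999893. Builds hg38 and GRCh38 and the tools StringTie 1.3.3, HISAT2 2.1.0 and edgeR 3.0.8 are credited to the submitters' processing notes, which give no roles here. Per the labels' protocols, ribosomal RNA was removed and libraries were strand-specific. Whether counting used strand, and whether a row's TPM covers 1 transcript or the gene, is not given in the sources used here. The listed transcript was the longest of its gene in 50.3% of rows.

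Blanks (73 to 279 per library, none in the 92 genes) were read as 0. The test took the 12210 genes that reached 1 TPM in 3 libraries or more. With R 4.3.3, limma 3.58.1 compared CES2 with Vector on log2(TPM + 1), using the intensity trend, and group was the only term. P-values were adjusted by Benjamini-Hochberg over all 12210 genes. TPM keeps no depth, so no counting interval can be given, and the pseudocount understates changes of low genes. The fit was tested on simulated data. Coordinates are the table's and match GENCODE 29 for 89 of the 92 genes; coding length and GC content come from GENCODE 29. In GENCODE 29, 30 of the 92 listed transcripts overlap exons on the opposite strand, 16 overlap another coding gene on their own strand, and 47 genes have a pseudogene named after them, so reads may be shared. Promoters are RefSeq's (GRCh38.p14).

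The genes and lists were chosen with earlier results of these data known. Named were, in each complex, the 3 genes with the smallest p and the 2 most abundant, all complex II genes, paralogue groups, untested genes, genes without overlap between groups, and, per further list, the 2 smallest p. The genes of the pattern by library number, NDUFS1, NDUFAF4, NDUFS8 and the lowest complex I subunit were named after their values were seen. Alternatives were another pseudocount, 2 other filters, 2 scalings, limma without the trend, a replicate block, each library left out and another placing of NDUFA4.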

Additional observations from a re-analysis of the deposited data

How the results depend on the processing

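No gene of the set passed the threshold in any of the 13 alternatives that refit the model, each library left out included. CES2 alone passed among all genes, except without CES2 replicate 3, where 2 genes did (range 1 to 2 over the libraries left out). The count of members with an unadjusted p under 0.05 was 1, and 0 with a pseudocount of 0.1, with a filter of at least 5 TPM, without the trend and with the replicate block. It ranged from 0 to 2 with a library left out, the 2 being ATP5MC2 and NDUFA13 without Vector 1. Over all genes the replicate numbers did not pair the libraries: deviations from group means of equal numbers correlated at 0.145, -0.524 and 0.375. Across the members these correlations were 0.237, 0.0619 and 0.687, the last between the libraries numbered 3. The block changed no call. Median rescaling moved the median of all genes from -0.06 to 0.005, that of the members to 0.101 and that of complex I subunits to 0.103. With a library left out the median of the set ran from 0.0137 to 0.0748, of complex I subunits from 0.0295 to 0.0876, of complex I assembly factors from -0.151 to 0.0897, of complex II from 0.0516 to 0.135, of complex III from -0.0522 to 0.110, of complex IV from 0.00750 to 0.0913 and of complex V from -0.0294 to 0.0768. Of 33 members named with a fold change, 18 kept their sign in every alternative that gave a value (NDUFA4L2 gives none under the filter of 5 TPM). NDUFA4 turned to 0.00530 on median rescaling. With a library left out, ranges that crossed 0 were -0.472 to 0.0383 for UQCRHL, -0.605 to 0.0806 for COX7A2L, -0.646 to 0.133 for ATP5F1A, -0.0284 to 0.255 for ATP5F1D, -0.00752 to 0.223 for COX6B1, -0.0104 to 0.119 for COX7B, -0.16 to 0.0243 for NDUFA4, -0.0485 to 0.274 for ATP5MC1, -0.152 to 0.318 for ATP5MC3, -0.0785 to 0.126 for SDHB, -0.329 to 0.275 for NDUFS1, -0.180 to 0.262 for UQCRQ, -0.161 to 0.564 for ATP5ME, -0.264 to 0.422 for NDUFA1 and -0.245 to 0.365 for ATP5F1E. For ATP5F1A and COX7A2L, a high Vector 1 value set the sign, and the cause of the other changes was not tested. Sequencing depth is unknown and limits what low genes such as NDUFA4L2 can show.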

Other observations

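Other mitochondrial genes were read in the same way. Of 13 tested enzymes of the tricarboxylic acid cycle, 6 were above 0 and 7 below, with a median log2 fold change of -0.02. Over all tested genes, 36.3% were above 0, with a median of -0.06. SUCLA2, a subunit of succinyl-CoA synthetase, was at 65.1, 46.1 and 73.7 TPM in CES2 and 70.7, 68.6 and 72.5 TPM in Vector (-0.22). SUCLG2, another subunit of that family, had a log2 fold change of -0.21. Of 15 genes for abundant mitochondrial proteins, 12 were above 0 (median 0.10), against 36.3% of all tested genes. TOMM20, an import receptor of the outer membrane, was one of the 3 below 0, at 148, 133 and 147 TPM in CES2 and 182, 184 and 144 TPM in Vector (-0.25), and PHB, prohibitin, was at 281, 259 and 369 TPM in CES2 and 197, 353 and 255 TPM in Vector (0.20). None of these genes passed the threshold or had an unadjusted p under 0.05. PPARGC1A, the coactivator PGC-1alpha, was under 0.5 TPM in every library and was not tested.

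The libraries numbered 3 also varied between lists. The median difference between those libraries and the other 4 was 0.21 log2 units for tricarboxylic acid cycle enzymes, 0.18 for the abundant mitochondrial proteins and -0.13 for complex II assembly genes. For the 90 respiratory chain genes it was -0.04. By complex it was -0.10 for complex I subunits, 0.14 for complex I assembly factors, 0.10 for complex II, -0.42 for complex III, -0.05 for complex IV and -0.04 for complex V.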
